A study of Mus musculus with 8 samples.

Results

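Mineral forms in dentin and bone where phosphate is plentiful and its inhibitor, pyrophosphate, is scarce, and 6 genes that set this balance were examined in the dental pulp of *Tgfbr2cko* molars. They are *Alpl*, *Enpp1*, *Ank*, *Phospho1*, *Phex* and *Mgp*, chosen by name for their known roles. Of the 6, 5 were among the 12148 genes with deposited values, and *Phospho1* was not analysed here. *Enpp1*, which encodes the enzyme that makes extracellular pyrophosphate, fell 4.18-fold in *Tgfbr2cko* pulp. *Alpl*, which encodes the enzyme that breaks pyrophosphate down, was 1.38-fold lower, under the 1.5-fold threshold, and like *Ank*, *Phex* and *Mgp* was not called altered.

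Pyrophosphate binds to growing hydroxyapatite crystals and blocks their growth. ENPP1, a membrane ectoenzyme, splits extracellular ATP into AMP and pyrophosphate, and ANK (progressive ankylosis) is a membrane protein needed for the release of ATP and pyrophosphate from cells. Tissue-nonspecific alkaline phosphatase, the product of *Alpl*, hydrolyses pyrophosphate to phosphate, and PHOSPHO1 releases phosphate from phosphocholine inside matrix vesicles. PHEX is an endopeptidase of odontoblasts and osteocytes whose loss causes X-linked hypophosphatemia with poorly mineralized dentin. Matrix Gla protein, the product of *Mgp*, inhibits mineralization of soft tissue once vitamin K-dependent carboxylation has made its Gla residues.

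RNA was sequenced from pulp of first molars of C57BL/6J mice at P7 in 8 libraries. The 4 control libraries, numbered 49 to 52 in their labels, came from Osterix-Cre mice, which carry Cre recombinase under the Osterix promoter. The 4 *Tgfbr2cko* libraries, numbered 53 to 56, came from mice with the same Cre and a conditional deletion of *Tgfbr2*, the type II receptor of TGFβ, in the cells in which that promoter is or was active. Left and right molars were combined, the pulp was freed of mineralized tissue and enamel organ, and males and females were used in equal numbers. Nothing in the sources used here says which libraries came from separate animals, so each p measures the spread between these libraries.

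Between 8682872 and 13539670 reads per library fell on the genes analysed. Values are log2 CPM, the log2 of a gene's reads scaled to a common library size, and a gene was called altered at an unadjusted limma-trend p under 0.05 with a change of at least 1.5-fold. *Tgfbr2* itself had log2 CPM values of 7.16, 7.62, 7.64 and 7.52 in Osterix-Cre 49 to 52 and 7.02, 7.00, 7.16 and 7.61 in Tgfbr2cko 53 to 56, so the library labelled Tgfbr2cko 56 lay among the controls and Tgfbr2cko 55 level with Osterix-Cre 49. Its log2 fold change was -0.29 (limma-trend, unadjusted p = 0.119, adjusted p = 0.790). The enamel matrix genes *Amelx* and *Ambn* took 18.5% of the reads of that library, 2.74% in Tgfbr2cko 55, 2.14% in Osterix-Cre 49 and at most 0.548% in the other 5. All 5 odontoblast markers and all 5 pulp mesenchyme markers listed were measured with reads in every library. Of the odontoblast markers *Nes* and *Wnt10a*, 2 of 5, were altered (lower), where 3.65% of all genes were altered in that direction, and of the pulp mesenchyme markers 0 were. Summed odontoblast markers were 45649 to 97664 CPM in the controls and 27781 to 60039 CPM in the mutants, and the pulp mesenchyme markers were 3852 to 5085 and 3990 to 5128 CPM. *Col1a1*, which other matrix-forming cells also express and which was not altered, made up 78.8% to 87.3% of the odontoblast sum in each library. Of 5 cartilage markers only *Col2a1* was measured, at 6.52 to 17.3 CPM in control and 9.56 to 21.5 CPM in mutant libraries.

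Of the 5 genes measured, 1 was altered, against 5.77% of all 12148 genes. That gene, *Enpp1*, was lower in the mutants, the direction of 3.65% of all genes. An unadjusted p under 0.05 was found for *Enpp1* and *Alpl*, 2 of 5, against a background of 8.38%. The mutant values of these same genes lay wholly below the control values, and 5.27% of all genes had no overlap between the genotypes. After Benjamini-Hochberg adjustment over all genes *Enpp1* remained under 0.05, which held for 0.947% of the genes tested.

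**Figure D1:**
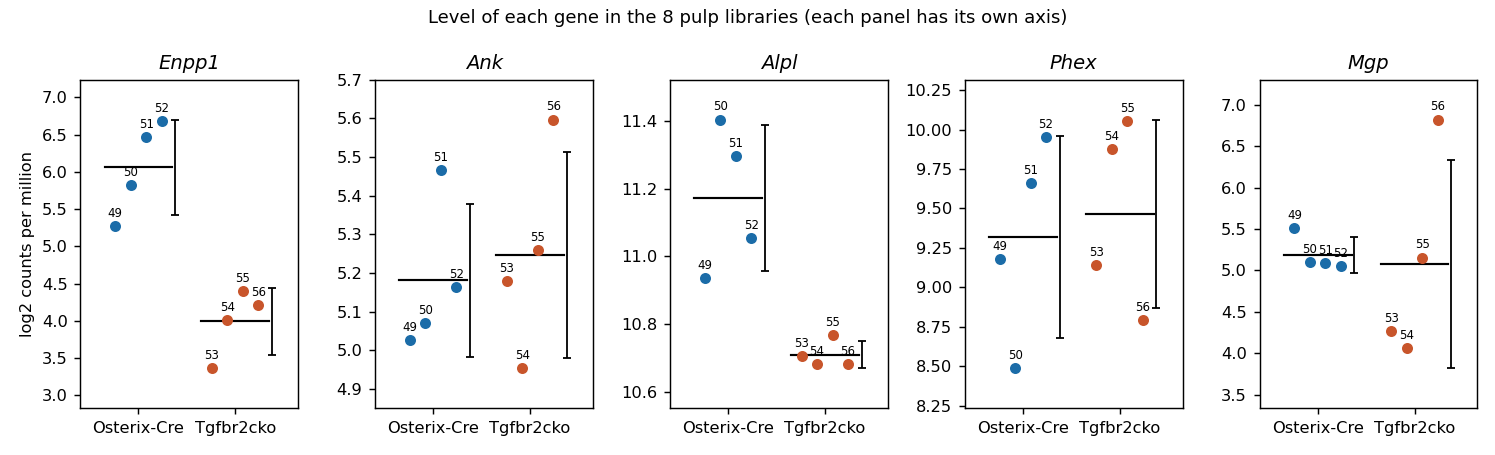
Level of *Enpp1*, *Ank*, *Alpl*, *Phex* and *Mgp* in log2 CPM (vertical axis, its own range in each panel) for the 4 Osterix-Cre and 4 *Tgfbr2cko* libraries. Each point is a library with its number, the horizontal line is the mean and the bar beside it the SD; for *Enpp1* every mutant point, 3.37 to 4.40, lies below every control point, 5.27 to 6.68.

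*Enpp1* (ENSMUSG00000037370.13) lies on chromosome 10 of GRCm38 from 24637914 to 24712159, on the minus strand. Its log2 CPM was 5.27, 5.82, 6.46 and 6.68 in Osterix-Cre 49 to 52. It was 3.37, 4.01, 4.40 and 4.21 in Tgfbr2cko 53 to 56. The lowest control thus lay above the highest mutant, with 377 to 1051 reads per control library and 91 to 250 per mutant library. The mean fell from 6.06 ± 0.64 to 3.996 ± 0.45 (SD, n = 4 each), a log2 fold change of -2.06 with a standard error of 0.30 (limma-trend, two-sided, unadjusted p = 1.10e-05, adjusted p = 0.00444). On the linear scale *Enpp1* was 4.18-fold lower in the mutants, with a 95% interval from 2.67 to 6.55. All 70 ways to arrange the libraries were tried in a two-sided exact permutation test, which gave p = 0.0286, the smallest it can give. By unadjusted p, *Enpp1* ranked 30 among the 12148 genes. Without the 3 libraries with over 2% of their reads on *Amelx* and *Ambn*, enamel matrix genes, the log2 fold change was -2.64. That fit kept Osterix-Cre 50, 51 and 52 against only Tgfbr2cko 53 and 54. In bulk pulp, fewer cells of the type that makes a transcript and less of it per cell cannot be told apart.

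Markers of vessel cells were followed beside these values. Of 5 mural cell markers 3 were measured and 1, *Rgs5*, was altered (lower), a call made for 3.65% of all genes, and their sum was 219 to 290 CPM in the controls and 149 to 181 CPM in the mutants. Of the 5 endothelial markers 1, *Tek*, was altered (lower), and they summed to 211 to 291 and 174 to 227 CPM. Of the mural list *Tagln* and *Myh11* were not in the table, and no measured marker of either list was at 0 in any library. The part of these cells, and of the lower odontoblast markers, in the values of *Enpp1* and *Alpl* was not tested.

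The 250 bases before the RefSeq start of *Enpp1* are shown because this is the gene that fell, and those of *Alpl*, which has an upstream and a downstream first exon, for comparison with an enzyme of the opposite role. Bases run 5′ to 3′ on the gene's minus strand (RefSeq, GRCm38.p6), and capitals mark CAGAC, the core of the sequence that SMAD proteins bind, on either strand (GTCTG on the other).
Enpp1, chr10:24712160-24712409: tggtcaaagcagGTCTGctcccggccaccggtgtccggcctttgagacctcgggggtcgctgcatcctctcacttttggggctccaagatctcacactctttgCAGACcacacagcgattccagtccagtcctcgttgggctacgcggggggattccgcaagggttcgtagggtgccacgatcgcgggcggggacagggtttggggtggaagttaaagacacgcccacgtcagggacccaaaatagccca
Alpl upstream, chr4:137796385-137796634: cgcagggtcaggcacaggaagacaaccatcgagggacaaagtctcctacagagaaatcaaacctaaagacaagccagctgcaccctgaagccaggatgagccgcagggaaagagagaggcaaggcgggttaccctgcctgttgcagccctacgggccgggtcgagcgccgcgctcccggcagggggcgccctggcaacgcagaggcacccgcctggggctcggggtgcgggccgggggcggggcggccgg
Alpl downstream, chr4:137766476-137766725: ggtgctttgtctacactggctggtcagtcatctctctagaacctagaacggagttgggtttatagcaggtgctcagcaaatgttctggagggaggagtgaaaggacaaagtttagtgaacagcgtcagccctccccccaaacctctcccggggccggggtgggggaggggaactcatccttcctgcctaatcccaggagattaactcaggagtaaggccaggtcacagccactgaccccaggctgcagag
The *Enpp1* stretch held 2 matches to CAGAC and neither *Alpl* stretch held any. Of the other regulators, the stretch of *Phex*, which was not altered, held 1 match, and those of *Ank* and *Phospho1* held 0. No such stretch was at hand for *Mgp*. Of 32851 promoters in the RefSeq table, 42.2% held at least 1 match in their 250 bases and 11.7% held 2 or more. GGGCGG, the GC box, occurred 1 time in *Enpp1* and 2 times in the upstream *Alpl* stretch, and 32.7% of promoters held it. TATAAA occurred only in the downstream *Alpl* stretch among these 3, and in 12.4% of all promoters. Both motifs were counted on either strand. The TATAAA match of *Alpl* reads tttata as printed, so it lies on the strand opposite to the gene. These are matches of letters, and no binding was measured.

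*Ank* (ENSMUSG00000022265.6), the other gene of the pyrophosphate supply, lies on chromosome 15 from 27466677 to 27594909. The controls had log2 CPM values of 5.03, 5.07, 5.47 and 5.16. The mutants had 5.18, 4.95, 5.26 and 5.60. The genotypes overlapped through most of their range, with means of 5.18 ± 0.20 for Osterix-Cre and 5.25 ± 0.27 for *Tgfbr2cko* (SD, n = 4 each). The log2 fold change was 0.07 with a 95% interval from -0.31 to 0.44 (limma-trend, adjusted p = 0.998; exact permutation test, p = 0.657). Its sign changed with the processing, and without the library labelled Tgfbr2cko 56 it was -0.05.

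*Alpl* (ENSMUSG00000028766.10) lies on chromosome 4 from 137741733 to 137796384, on the minus strand, and had 14836 to 26164 reads per library. Its log2 CPM was 10.94, 11.40, 11.30 and 11.06 in the controls. In the mutants it was 10.71, 10.68, 10.77 and 10.68. Every mutant value lay below every control value, and the mutants were the tighter group, at 10.71 ± 0.04 against 11.17 ± 0.21 (SD, n = 4 each). The log2 fold change was -0.46 with a standard error of 0.20 and a 95% interval from -0.89 to -0.03. Its limma-trend p was 0.0366 before adjustment and 0.521 after, and the exact permutation p was 0.0286. At 1.38-fold the difference was under the 1.5-fold threshold, so *Alpl* was not counted as altered. When libraries were left out singly, the log2 fold change stayed between -0.54 and -0.39, and its unadjusted p was under 0.05 in 3 of the 8 fits.

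**Figure D2:**
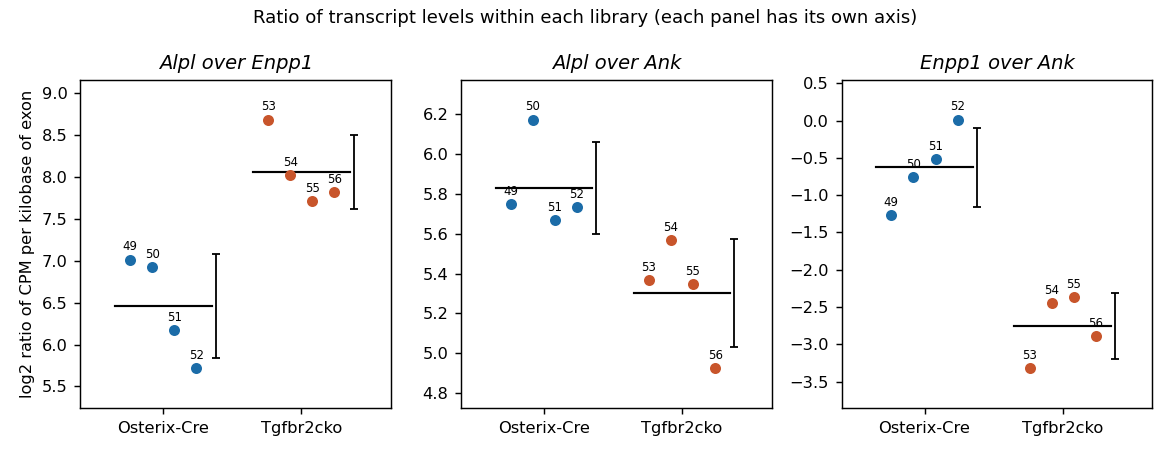
Log2 ratio of CPM per kilobase of exon (vertical axis, its own range in each panel) for *Alpl* over *Enpp1*, *Alpl* over *Ank* and *Enpp1* over *Ank*, within each library. Points are libraries with their numbers, lines are means and bars are SD; the mutants lie above the controls for *Alpl* over *Enpp1* and below them in the other 2 panels.

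The pyrophosphate-degrading and pyrophosphate-making enzymes were also set against each other within each library, per kilobase of annotated exon. The exon length counts every annotated exon of a gene, and the transcripts present may not hold them all. The ratio of *Alpl* to *Enpp1* in CPM per kilobase was 129, 122, 72.4 and 52.6 in Osterix-Cre 49 to 52. It was 412, 260.03, 209.9 and 226 in Tgfbr2cko 53 to 56. The ratio was thus higher in every mutant library than in any control, with geometric means of 88.0 and 267. On the log2 scale the difference was 1.60, or 3.03-fold, and it ran from 1.35 to 1.79 with each library left out. *Enpp1* over *Ank* went the other way, from a geometric mean of 0.647 in the controls to 0.148 in the mutants, which is 4.37-fold lower. *Alpl* over *Ank* had geometric means of 56.9 for Osterix-Cre and 39.5 for *Tgfbr2cko*. These ratios use the same values as the single genes and are given as a description, and a ratio of transcripts is not a ratio of enzyme activities.

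*Phex* (ENSMUSG00000057457.11), on chromosome X from 157162075 to 157415312, was abundant and variable. Its log2 CPM was 9.18, 8.49, 9.66 and 9.95 in the controls. It was 9.14, 9.87, 10.05 and 8.79 in the mutants. Each genotype spanned more than the gap between the means of 9.32 ± 0.64 and 9.46 ± 0.60 (SD, n = 4 each). The log2 fold change was 0.14 with a 95% interval from -0.57 to 0.86 (limma-trend, adjusted p = 0.998; exact permutation test, p = 0.743), and the interval reaches past a 1.5-fold increase. Left-out libraries moved it from -0.13 to 0.37, with the sign turning without Osterix-Cre 50 or Tgfbr2cko 55.

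*Mgp* (ENSMUSG00000030218.2) lies on chromosome 6 from 136872435 to 136875823. The controls had log2 CPM values of 5.52, 5.10, 5.09 and 5.06. The mutants had 4.26, 4.06, 5.16 and 6.82, the last in the library labelled Tgfbr2cko 56. Of the 5 genes it had the widest mutant spread, with means of 5.19 ± 0.22 and 5.08 ± 1.26 (SD, n = 4 each) and 170 to 1532 reads per mutant library. Over all 8 libraries the log2 fold change was -0.11 with a 95% interval from -1.09 to 0.87 (limma-trend, adjusted p = 0.998; exact permutation test, p = 0.971).

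The level of *Mgp* was set beside the transcripts of enamel matrix, *Amelx*, *Enam* and *Ambn*. Their mean log2 CPM was 12.08, 9.23, 9.65 and 10.21 in Osterix-Cre 49 to 52. In Tgfbr2cko 53 to 56 it was 9.99, 9.27, 12.58 and 15.28. In the mutants the order of the libraries by *Mgp* was their order by enamel genes, and among the controls Osterix-Cre 49 was the highest in both while the other 3 ran in opposite orders. Without the library labelled Tgfbr2cko 56 the log2 fold change of *Mgp* was -0.70 (limma-trend, unadjusted p = 0.0132, adjusted p = 0.290). With the enamel mean as a covariate it was -0.71 (limma-trend, unadjusted p = 0.00464, adjusted p = 0.186). Without the 3 libraries richest in *Amelx* and *Ambn* it was -0.92 (limma-trend, unadjusted p = 6.73e-04, adjusted p = 0.0778). That fit kept Osterix-Cre 50, 51 and 52 against only Tgfbr2cko 53 and 54, the mutants with the lowest *Mgp*. In each of these 3 fits *Mgp* would count as altered, and in none was its adjusted p under 0.05. Without Tgfbr2cko 53 or Tgfbr2cko 54 the sign turned, to 0.16 and 0.22. The 7 enamel organ markers were all measured, with reads in every library, and summed to 3965 to 23283 CPM in control libraries and 4120 to 193232 CPM in mutant libraries. *Amelx*, *Ambn* and *Enam* had log2 fold changes of 1.39, 1.45 and 1.63 and were not altered. The other 4 had negative values, with *Klk4*, a protease of enamel maturation, altered at -2.71 (limma-trend, adjusted p = 1.36e-04) and *Amtn*, *Odam* and *Mmp20* at -0.89, -0.76 and -0.38. The 5 dental epithelium markers were all measured, with reads in every library, and summed to 319 to 498 CPM in control libraries, 347 to 527 CPM in Tgfbr2cko 53 and 54, 1309 CPM in Tgfbr2cko 55 and 4187 CPM in the library labelled Tgfbr2cko 56. Of them *Cdh1* and *Krt17* were altered (higher), 2 of 5 against 2.12% of all genes altered in that direction. Their log2 fold changes were 1.15 and 1.67 (limma-trend, unadjusted p = 0.0373 and 0.0118, adjusted p = 0.527 and 0.287). *Krt14* and *Krt5* were also higher in the mutant mean but were not altered. *Epcam* went the other way, with a log2 fold change of -0.43, and was not altered. The part of enamel organ and epithelial cells in the values of *Mgp* was not tested.

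**Figure D3:**
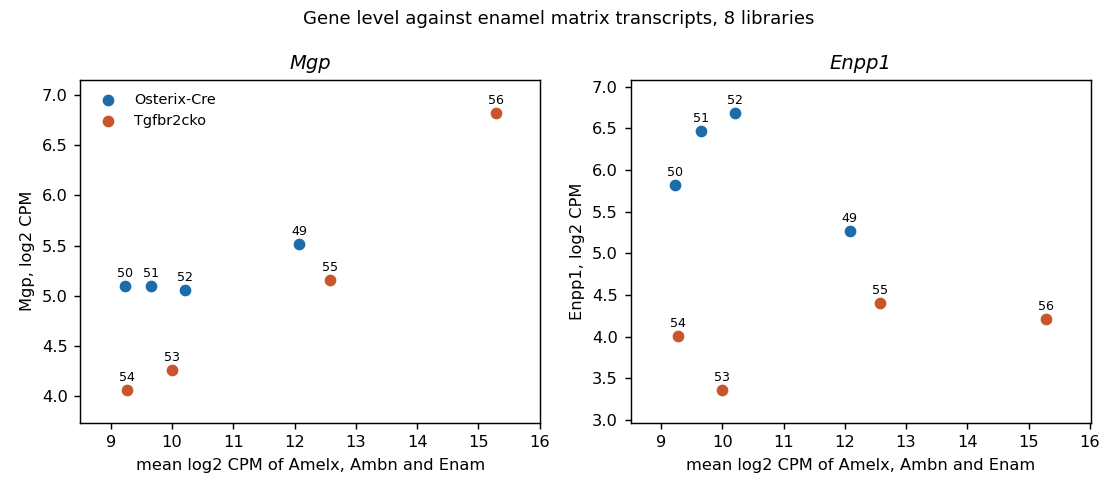
Log2 CPM of *Mgp* (left) and *Enpp1* (right) against the mean log2 CPM of *Amelx*, *Ambn* and *Enam* in the 8 libraries, numbered, with controls in blue and mutants in orange. *Mgp* reaches 6.82 in the library with an enamel mean of 15.28, while the *Enpp1* points of the mutants stay at or under 4.40 along the whole axis.

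Per kilobase of exon, the order of levels in the controls was *Alpl*, *Phex*, *Mgp*, *Ank* and *Enpp1*, at 9.16 ± 0.21, 6.67 ± 0.64, 4.94 ± 0.22, 3.33 ± 0.20 and 2.70 ± 0.64 log2 CPM per kilobase (SD, n = 4 each). The ranges of neighbours in this order did not overlap except for *Ank* and *Enpp1*. In the mutants the order was the same, at 8.70 ± 0.04, 6.81 ± 0.60, 4.83 ± 1.26, 3.40 ± 0.27 and 0.64 ± 0.45 log2 CPM per kilobase (SD, n = 4 each). There *Enpp1* lay below *Ank* in every library, with a highest value of 1.04 against a lowest of 3.10 for *Ank*, and *Phex* and *Mgp* overlapped.

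The other genes of phosphate and pyrophosphate handling were followed in lists of 42 genes, of which 32 were measured. Of the 32, 4 (12.5%, against 5.77% of all genes) were altered, *Panx1* and *Ibsp* higher and *Enpp3* and *Bglap* lower in the mutants. An unadjusted limma-trend p under 0.05 was found for 6 (8.38% over all genes) and an adjusted p under 0.05 for 0. The genotypes did not overlap for 1, *Xpr1* (5.27% over all genes). The median log2 fold change was 0.07 over the 32 genes and -0.01 over all genes tested.

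**Figure D4:**
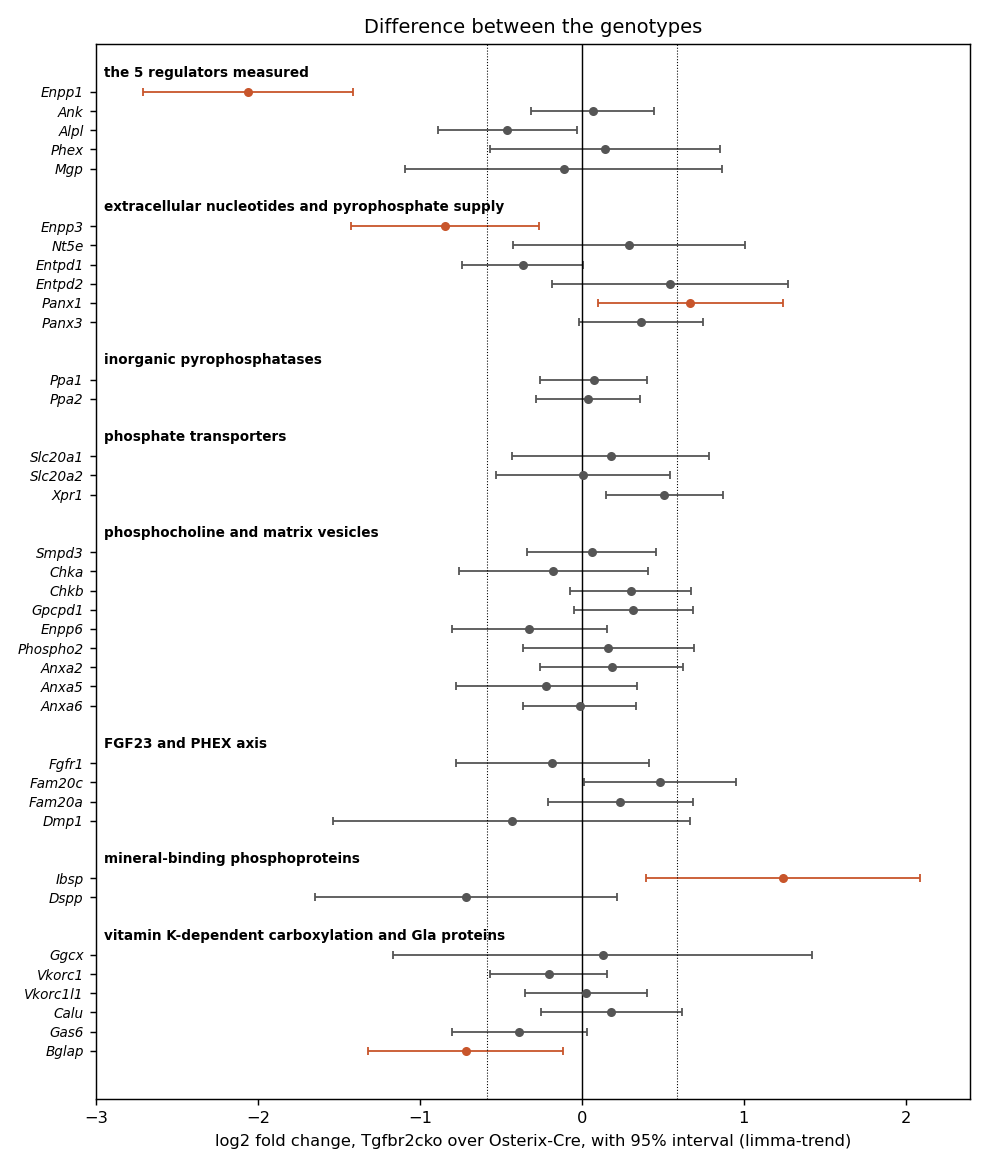
Log2 fold change of *Tgfbr2cko* over Osterix-Cre (horizontal axis) with its 95% interval from limma-trend for the 5 regulators and 32 further genes, grouped by role. Dotted lines mark 1.5-fold and orange marks altered genes; *Enpp1*, at -2.06, lies farthest from 0, followed by *Ibsp* at 1.24.

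Among the genes that supply or use extracellular nucleotides, 6 of 7 were measured. *Enpp3*, a relative of *Enpp1* that also hydrolyses nucleotides, had log2 CPM values of 5.04, 5.41, 5.31 and 4.87 in the control libraries and 5.14, 4.28, 4.20 and 3.63 in the mutant libraries. Only Tgfbr2cko 53 lay within the control range. *Enpp3* fell by 0.85 on the log2 scale (limma-trend, standard error 0.27, unadjusted p = 0.00790, adjusted p = 0.235), and without the 3 libraries richest in enamel transcripts it differed by -0.49 (limma-trend, unadjusted p = 0.106). *Panx1*, an ATP-releasing channel, rose by 0.67 (limma-trend, standard error 0.26, unadjusted p = 0.0252, adjusted p = 0.434), and by 0.39 without the library labelled Tgfbr2cko 56, where it did not pass, as it did not without Osterix-Cre 51 or 52. Without the 3 enamel-rich libraries *Panx1* differed by 0.37 (limma-trend, unadjusted p = 0.174). *Panx3*, a channel of the same family found in mineralizing cells, was the most abundant of the list and differed by 0.36 (unadjusted p = 0.0620). The ectonucleotidases *Nt5e*, *Entpd1* and *Entpd2* differed by 0.29, -0.37 and 0.55, and none of them was altered with all libraries.

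*Enpp1* and *Enpp3* are neighbours on chromosome 10, 60246 bases apart on the same strand with 0 annotated genes between them, so the genes around *Enpp1* were looked at after these values were seen. Within 500 kb on either side 6 other genes were measured, and *Enpp3* was the 1 that was altered, where 5.77% of all genes were. *Ccn2*, a matricellular protein gene that TGFβ signalling induces, lies 39230 bases from *Enpp1* and had 5.62 ± 0.05 in control and 5.29 ± 0.63 in mutant pulp (log2 CPM, SD, n = 4 each; limma-trend, unadjusted p = 0.215). Its mutant values were 4.81, 4.98, 5.15 and 6.21, of which only the library labelled Tgfbr2cko 56 lay above the controls, and without that library *Ccn2* was altered, at -0.64 (limma-trend, unadjusted p = 8.42e-04, adjusted p = 0.0596). *Med23*, *Stx7*, *Akap7* and *Moxd1* had log2 fold changes of 0.08, 0.06, -0.33 and 0.56 and were not altered. Without the library labelled Tgfbr2cko 56 those of *Akap7* and *Moxd1* were 0.011 and -0.22, and both changed sign.

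Of the intracellular pyrophosphatases and phosphate transporters measured, 0 were altered, where 5.77% of all genes were. *Ppa1* and *Ppa2*, which split pyrophosphate inside cells, differed by 0.07 and 0.04 on the log2 scale. *Slc20a2*, a sodium-phosphate importer and the most abundant transporter measured, had 11.16 ± 0.21 in the controls and 11.16 ± 0.41 log2 CPM in the mutants (SD, n = 4 each), and *Slc20a1* differed by 0.18. *Xpr1*, the phosphate exporter, had control values of 5.13 to 5.52 and mutant values of 5.62 to 6.18, which do not overlap. Its log2 fold change of 0.51 had a limma-trend standard error of 0.17, an unadjusted p of 0.00921 and an adjusted p of 0.253, and at 1.42-fold it was not counted as altered. Without the 3 enamel-rich libraries it was 0.32 (limma-trend, unadjusted p = 0.109), and without Tgfbr2cko 53 it was altered, at 0.59. The 3 renal and intestinal importers of the *Slc34* family were not in the table.

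All 9 genes of phosphocholine supply and matrix vesicles were measured and 0 were altered, where 5.77% of all genes were, with log2 fold changes from -0.32 for *Enpp6* to 0.32 for *Gpcpd1*. *Smpd3*, the neutral sphingomyelinase needed for skeletal and dentin mineralization, differed by 0.06. *Phospho2*, a relative of *Phospho1*, differed by 0.16. *Anxa5* and *Anxa6*, calcium-binding annexins of matrix vesicles, differed by -0.22 and -0.015.

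Of the FGF23 and PHEX list 4 of 8 genes were measured, and 0 were altered, against the same 5.77%. *Fam20c*, the kinase that phosphorylates secreted matrix proteins, had a log2 fold change of 0.48 (limma-trend, unadjusted p = 0.0447, adjusted p = 0.570), which is 1.40-fold. Without the 3 enamel-rich libraries it was 0.28 (limma-trend, unadjusted p = 0.317), and it was altered without Osterix-Cre 52 (0.59) or Tgfbr2cko 53 (0.64). *Dmp1*, *Fgfr1* and *Fam20a* had values of -0.44, -0.18 and 0.24. *Fgf23* and *Kl* were not in the table.

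The mineral-binding phosphoproteins and the Gla proteins held the largest difference of these lists. Of the phosphoproteins 2 of 3 were measured, with differences of opposite sign. *Dspp*, the precursor of the main dentin phosphoproteins and the more abundant of the pair, differed by -0.71 (limma-trend, unadjusted p = 0.122, adjusted p = 0.794) and was not altered. *Ibsp*, bone sialoprotein, had 4.92 ± 0.43 in the controls and 6.16 ± 1.00 log2 CPM in the mutants (SD, n = 4 each), with control values of 4.54 to 5.43 and mutant values of 5.21 to 7.56. It rose by 1.24 on the log2 scale (limma-trend, standard error 0.39, unadjusted p = 0.00748, adjusted p = 0.230; exact permutation test, p = 0.0571). Its highest value was in the library labelled Tgfbr2cko 56, and without it the rise was 0.77. Without Tgfbr2cko 53 the rise was 1.55 (limma-trend, adjusted p = 0.0482). The adjusted limma-trend p was 0.0150 with libraries of the same title number averaged and 0.0497 with library weights. It was over 0.05 in the other fits. *Bglap*, osteocalcin, fell by 0.72 (limma-trend, unadjusted p = 0.0226, adjusted p = 0.408) and did not pass without Osterix-Cre 49 or 52 or the library labelled Tgfbr2cko 56, nor without the 3 enamel-rich libraries, where it was -0.47 (limma-trend, unadjusted p = 0.122). It has near-identical copies between which reads may be split. *Ibsp* and *Bglap* are also on the list of alveolar bone markers, which summed to 2053 to 3820 CPM in the controls and 1481 to 2217 CPM in the mutants. Most of that sum is *Bglap* itself, and without it the list summed to 190.0 to 235 CPM and 237 to 357 CPM. Of the vitamin K cycle, *Ggcx*, the carboxylase that makes Gla residues in MGP, differed by 0.13, with a standard error of 0.60, and *Vkorc1* and *Vkorc1l1* by -0.21 and 0.03. Another gene on the same strand overlaps 47.7% of the exon bases of *Vkorc1*.

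The genes whose log2 CPM followed each regulator most closely over the 8 libraries were taken from the 10313 genes with a mean log2 CPM of at least 3. For *Enpp1* they were *Crmp1*, *Ppp1r15a* and *Hid1*, with Pearson's r of 0.966, 0.957 and 0.956. *Crmp1*, a collapsin response mediator protein of growing neurites, had a log2 fold change of -1.93 (limma-trend, adjusted p = 0.0202). For *Alpl* they were *Ap1b1*, *Icam2* and *Trim47*, with r of 0.964, 0.957 and 0.952. These r include the difference between the genotypes, since *Enpp1* and *Alpl* separate them. For *Ank* the closest were *Chd3*, *Dchs1* and *Iqgap1* (r of 0.938, 0.919 and 0.916). For *Phex* they were *Megf10*, *Plcd1* and *Specc1* (0.972, 0.970 and 0.968), and for *Mgp*, *Rassf9*, *Fam198b* and *Bmp3* (0.969, 0.951 and 0.950). The highest of 10313 values is high by selection, and all share the same 8 libraries. *Ank*, *Phex* and *Mgp* did not separate the genotypes and were also set against each other as 3 pairs. *Ank* and *Mgp* had Pearson's r of 0.68 (permutation p = 0.0576, adjusted over the 3 pairs 0.173) and Spearman's rho of 0.43 (permutation p = 0.299), and r was 0.23 without the 2 libraries farthest from the median of *Ank*. For *Ank* and *Phex* r was -0.12 (permutation p = 0.768) and for *Phex* and *Mgp* -0.41 (permutation p = 0.327).

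**Figure D5:**
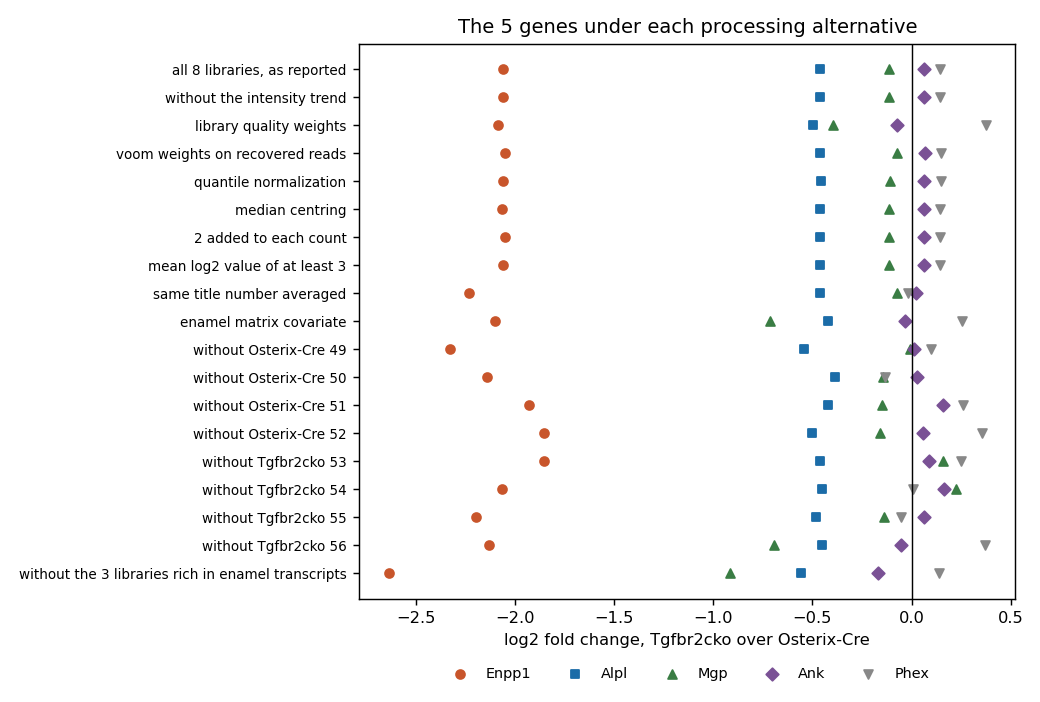
Log2 fold change of *Tgfbr2cko* over Osterix-Cre (horizontal axis) for the 5 genes over all 8 libraries and under each processing alternative or left-out library (vertical axis). *Enpp1* stays between -2.64 and -1.85 and *Alpl* below 0, while *Ank*, *Phex* and *Mgp* lie on either side of 0.

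*Enpp1* was altered in all 9 alternative fits and in all 8 fits that each left out 1 library, where its log2 fold change ran from -2.33 to -1.85. Its adjusted p was at most 0.0178 over the 9 alternatives. The plot of the alternatives shows the order of the 5 genes: *Enpp1* is lowest in every fit and *Alpl* next to it except where *Mgp* passes below it.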

How the data were processed

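The deposited values are log2 values for 12148 genes in 8 libraries. Per the labels and the methods, the authors amplified low-input RNA, trimmed reads with fastp 0.21.0, aligned them with HISAT2 2.1.0 to GRCm38.p5 (GRCh38 in the methods text), counted them with featureCounts (Subread 2.0.1), kept reliably quantifiable genes and applied voom. The log2 values are therefore log2 CPM with 0.5 added to each count, and all 97184 gave back whole reads, within 1.42e-05 of a whole count. At these depths 3 reads are 0.222 to 0.346 CPM; without molecular identifiers this covers counting error only. The strand setting of the counting is not given in the sources used here.

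The genotypes were compared on all 12148 genes with limma 3.58.1 in R 4.3.3 (two-sided, intensity trend), with Benjamini-Hochberg adjustment over all genes, and single genes by a two-sided exact permutation test. The script was tested on simulated counts. The 6 regulators and the pathway and marker lists were chosen with earlier results of these data known. The text names every regulator, list genes with a p under 0.05 or a described role, and the 3 closest genes by correlation. Positions and exon lengths come from GENCODE M21 (GRCm38), matched by identifier without version; 12144 genes had a symbol. Alternatives were no trend, library weights, voom weights, quantile normalization, median centring, 2 added to each count, a mean log2 value of at least 3, libraries of the same title number averaged, an enamel covariate, and leaving out each library. Leaving out 3 enamel-rich libraries was added after seeing the data, and kept Osterix-Cre 50, 51 and 52 against Tgfbr2cko 53 and 54. Figures used Python 3.11.15 and matplotlib 3.10.9.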

Additional observations from a re-analysis of the deposited data

Results flagged for a closer look

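In 6 of the 80 groups of 4 libraries examined, over the regulators, the 32 further genes and the 3 ratios, 1 library lay farther from the rest than Dixon's 95% critical value allows; chance alone gives about 1 in 20. *Mgp* was 5.52 log2 CPM in Osterix-Cre 49 and 5.06 to 5.10 in the other controls. In the library labelled Tgfbr2cko 56, *Enpp6* was 7.94 (8.85 to 9.01 in the other mutants), *Fgfr1* was 10.10 (11.15 to 11.24) and *Panx1* was 5.41 (4.17 to 4.37). *Vkorc1*, of whose exons 47.7% overlap another gene on the same strand, was 6.65 in Osterix-Cre 49 and 6.01 to 6.07 in the other controls. The log2 ratio of *Alpl* to *Ank* (CPM, not per kilobase) was 6.33 in Osterix-Cre 50 and 5.83 to 5.91 in the other controls. Osterix-Cre 49 and the library labelled Tgfbr2cko 56 are among the 3 libraries with over 2% of their reads on *Amelx* and *Ambn*, at 2.14% and 18.5%, and the part of this in the values was not tested.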

How the results depend on the processing

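*Enpp1* and *Alpl* kept their direction and their call, for *Alpl* that of not altered, in all alternatives. With 1 library left out *Enpp1* ran from -2.33 to -1.85 and *Alpl* from -0.54 to -0.39. The unadjusted limma-trend p of *Alpl* was under 0.05 in 8 of the 9 alternatives and 0.0668 with libraries of the same title number averaged. The log2 fold change of *Ank* was -0.074 with library weights, -0.031 with the enamel covariate and -0.17 without the 3 enamel-rich libraries, and ran from -0.051 to 0.16 with 1 library left out. That of *Phex* was -0.019 with libraries of the same title number averaged and ran from -0.13 to 0.37 with 1 library left out. That of *Mgp* was -0.71 with the enamel covariate and -0.92 without the 3 enamel-rich libraries, and ran from -0.70 to 0.22 with 1 library left out. The cause was not tested. Removing those 3 libraries also moved the median log2 fold change of all genes, from -0.01 to 0.11. The count of genes with an adjusted p under 0.05, 115 with all libraries, was 258 with library weights and ran from 65 to 165 with 1 library left out. At 2-fold, 256 genes and 1 pathway gene (*Ibsp*) were altered, where the 1.5-fold threshold gave 701 and 4. Of the altered genes 63.2% were lower in the mutants, 52.95% without the library labelled Tgfbr2cko 56 and 48.8% without the 3 enamel-rich libraries. *Ibsp* was altered in all these fits and was 0.79 with the enamel covariate. *Panx1* lost its call with library weights (0.50) and the enamel covariate (0.45), and *Bglap* with library weights (-0.45). Without the 3 enamel-rich libraries *Panx1* (0.37), *Bglap* (-0.47) and *Enpp3* (-0.49) lost their calls, *Xpr1* was 0.32, and the 4 pathway genes altered were *Ibsp*, *Entpd1*, *Entpd2* and *Panx3*. Of the other 26 pathway genes 15 changed sign in some fit, and those 3 other than *Ibsp* were altered in some. No paired analysis was possible because the genotypes share fewer than 2 numbers: the library numbers differ, and a further title number, whose meaning is not given in the sources used here, is 4, 4, 2 and 5 for Osterix-Cre 49 to 52 and 3, 2, 2 and 3 for Tgfbr2cko 53 to 56. With 4 libraries per genotype the intervals of *Phex* and *Mgp* span changes of over 1.5-fold.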
